A study of Mus musculus with 16 samples.

Results

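The genes described here are the Wnt ligands, their receptors and the secreted proteins that tune them, read in whole mouse dorsal skin with and without UVB. They were chosen by symbol: every gene whose name starts with Wnt, Fzd, Dkk, Sfrp or Rspo followed by a digit, plus Axin2, Wif1, Notum, Lrp5 and Lrp6. The rule found 47 of the 55359 gene IDs in the count files: 19 ligands, 12 receptors, 4 R-spondins, 10 secreted antagonists, the feedback target Axin2 and Rspo4os, an RNA from the strand opposite Rspo4. The rule uses symbols and no measured values, though it was set with earlier results of these data known.

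All skin came from males of 8 weeks, and its condition is labelled telogen, when hair follicles rest. Genotypes were WT and Tnfrsf1a/b KO, in which both TNF receptor genes were knocked out (KO here). Within a genotype, 4 of the libraries used are labelled no UVB ctrl (control) and 4 are labelled 3xUVB (UVB), which makes 4 groups and 16 libraries. The sample list also names a further KO UVB sample, which was not used. The sources used here give neither the strain, the form of the knockout alleles nor the dose and times of the UVB. Whether each library is a different mouse is not stated, so the p-values rest on a spread between libraries that may be technical. By its title, the series is about loss of Tnf signalling and the activation of melanocyte stem cells by UVB.

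Wnt proteins are secreted lipid-modified signals that bind a Frizzled receptor together with the co-receptor Lrp5 or Lrp6. In the canonical branch this stabilises beta-catenin, which then acts with TCF/LEF transcription factors on target genes such as Axin2. R-spondins raise the number of Frizzled receptors at the cell surface, while Dkk, Sfrp, Wif1 and Notum proteins dampen signalling by blocking Lrp5 and Lrp6, binding Wnts or removing the Wnt lipid. In skin the pathway is known for its part in hair follicle growth, in maintenance of the epidermis and in the behaviour of melanocyte stem cells of the follicle.

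Promoter sequences are shown for 3 members on which the results turn: Axin2, the transcriptional readout of the pathway, Wnt4, which rose after UVB in both genotypes, and Wnt3, which rose after UVB in WT skin. Each is the 250 bases upstream of the annotated start, 5′ to 3′ on the plus strand, from RefSeq on GRCm38.p6. That build differs from the one the reads were aligned to, so the coordinates apply to the sequence alone. Capitals mark the GC box GGGCGG or its reverse complement CCGCCC, a sequence bound by Sp-family factors. The windows are chr11:108920099-108920348 (Axin2), chr4:137277385-137277634 (Wnt4) and chr11:103773925-103774174 (Wnt3).
Axin2: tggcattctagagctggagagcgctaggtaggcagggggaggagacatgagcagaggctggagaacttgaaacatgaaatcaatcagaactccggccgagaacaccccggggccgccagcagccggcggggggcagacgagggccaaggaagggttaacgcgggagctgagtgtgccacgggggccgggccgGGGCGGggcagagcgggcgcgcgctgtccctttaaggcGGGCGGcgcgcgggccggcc
Wnt4: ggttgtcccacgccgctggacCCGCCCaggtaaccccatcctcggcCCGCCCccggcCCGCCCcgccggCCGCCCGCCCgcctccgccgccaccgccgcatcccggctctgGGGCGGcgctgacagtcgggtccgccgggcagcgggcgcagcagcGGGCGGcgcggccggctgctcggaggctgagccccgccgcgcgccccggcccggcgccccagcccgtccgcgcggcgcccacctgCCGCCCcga
Wnt3: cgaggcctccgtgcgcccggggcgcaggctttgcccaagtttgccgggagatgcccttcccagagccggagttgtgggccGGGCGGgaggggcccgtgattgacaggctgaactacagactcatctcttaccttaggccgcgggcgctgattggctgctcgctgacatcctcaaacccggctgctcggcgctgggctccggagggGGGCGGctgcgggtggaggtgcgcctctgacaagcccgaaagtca

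All of these windows are rich in G and C, at 69.2% (Axin2), 85.2% (Wnt4) and 68.0% (Wnt3), against a median of 52.4% over all 32851 windows of the RefSeq table. GC boxes, counted on both strands with overlaps, numbered 2, 8 and 2. A promoter window was listed for 29 of the 47 members, and 22 of those 29 held a GC box, as did 32.7% of all windows. The TCF/LEF core ATCAAAG, searched on both strands, was present in the windows of Wnt5b and Wnt11 and in 3.2% of all windows. Its variant TTCAAAG, searched likewise, was in that of Dkk1 and in 4.5% of all windows. None of the 11 listed members called in any comparison below held either core, which says only that these letters are not in these 250 bases.

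Depth was 15644375 to 23200649 reads in genes per library. Skin markers were present in all groups, with basal keratinocyte markers (Krt5, Krt14 and others) summing to 4482 to 16224 CPM per library (counts scaled to the normalised size of the library). Tnfrsf1a and Tnfrsf1b transcripts were lower in KO libraries without overlap and still present. Tnfrsf1a was at most 104.8 CPM in KO and at least 133.3 in WT libraries, and Tnfrsf1b at most 27.9 in KO and at least 33.6 in WT libraries. Markers of the growing follicle (24 of 25 listed genes matched) were abundant in WT control skin despite the telogen label, at a sum of 1418 to 3407 CPM, against 132 to 316 in WT UVB, 277 to 489 in KO control and 99.3 to 141 CPM in KO UVB libraries. In bulk skin, fewer cells of a type and less RNA per cell cannot be told apart.

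Of the 47 members, 40 passed the filter on low counts and were tested. The other 7 were Wnt1, Wnt8a, Wnt8b, Wnt9b, Dkk1, Dkk4 and Rspo4os, with at most 18 reads in any library (Wnt9b, KO UVB library 3). Wnt8a, a ligand known mainly from the embryo, had 5 to 7 reads in each WT UVB library and 0 to 3 in each WT control library. In KO it had 1 to 6 reads per UVB library and 0 to 2 per control library. Levels of different genes were compared per length, as CPM per kilobase of exon in WT control skin (mean ± SD, n = 4). Among ligands, Wnt3 (6.02 ± 0.75), Wnt10a (5.79 ± 0.77), Wnt7b (5.77 ± 0.62) and Wnt4 (5.64 ± 0.94) were the most abundant per length and lay within each other's SD. Wnt6, a ligand of surface epithelia, followed at 3.54 ± 0.39 CPM per kilobase, and Wnt5a, the main ligand of beta-catenin-independent signalling, at 3.10 ± 0.28. Receptors were led by Fzd1 (25.8 ± 1.53) and Fzd4 (23.8 ± 5.17), and the co-receptors Lrp6 (12.7 ± 1.13) and Lrp5 (11.0 ± 0.36) were close to each other. Rspo1 (5.98 ± 0.88) exceeded Rspo3 (1.17 ± 0.27) and Rspo4 (1.15 ± 0.32) among the R-spondins, with Rspo2 at 0.072 ± 0.015. The antagonists Sfrp1 (29.7 ± 8.43) and Sfrp4 (22.9 ± 10.1), both secreted Frizzled-related proteins that bind Wnts, had the highest levels per length of their class, and Axin2 stood at 8.78 ± 1.21.

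**Figure D1:**
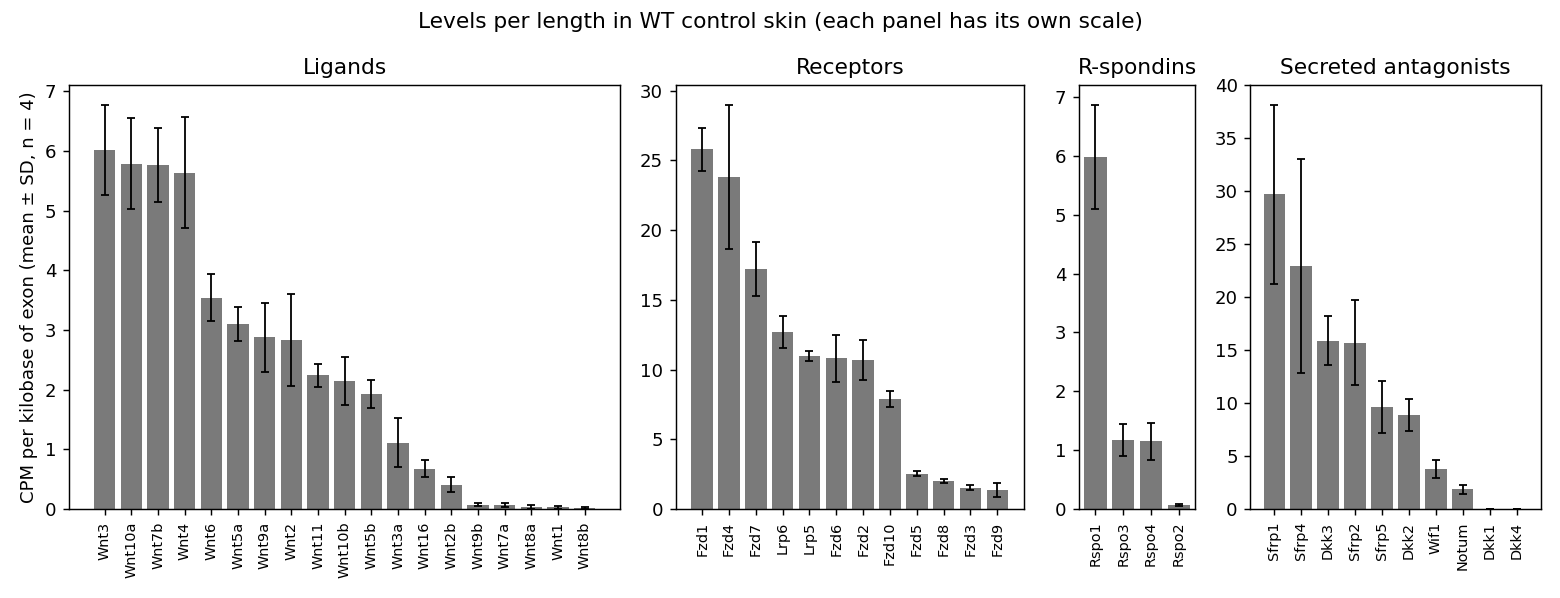
Levels of the Wnt genes in WT control skin in CPM per kilobase of exon (bars, mean; error bars, SD over 4 libraries), by role, each panel on its own scale from 0. Wnt3, Wnt10a, Wnt7b and Wnt4 lead the ligands at 5.64 to 6.02, while Fzd1 (25.8) and Sfrp1 (29.7) lead the receptors and antagonists.

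After UVB, Wnt4 rose in both genotypes while many receptors, the R-spondins Rspo2 and Rspo3, several ligands and the antagonists Sfrp1, Sfrp5 and Dkk3 fell in WT, in KO or in both. Calls are those of edgeR's quasi-likelihood test, with p-values adjusted by Benjamini-Hochberg over all 17531 genes tested and a threshold of 0.05. All adjusted p-values below come from that test, and log2 fold changes are given ± SE. In WT skin 2 members rose (Wnt4 and Wnt3) and 6 fell (Sfrp1, Sfrp5, Fzd1, Fzd5, Lrp6 and Wnt5a), 8 of the 40 tested, while 18.8% of all genes were called. By direction, 10.2% of all genes were called higher and 8.6% lower. In KO skin 2 members rose (Wnt4 and Wnt10a) and 14 fell, 16 of 40, where 32.3% of all genes were called, 17.2% higher and 15.1% lower. The median log2 fold change of the tested members was -0.23 in WT and -0.39 in KO, against -0.03 and -0.02 over all genes. The calls changed in number with the libraries: leaving out 1 library gave 3 to 11 called members in WT and 10 to 18 in KO. The WT count was 3 without WT UVB library 3, 4 without WT control library 1, and 5 without WT control library 2, WT UVB library 2 or WT UVB library 4. The KO count was 10 without library 3 of either KO group. Control and UVB libraries did not overlap in 12 members in WT (4 higher and 8 lower after UVB), 30% of 40, against 28.2% of all genes (15.1% higher, 13.1% lower). In KO they did not overlap in 6 (Rspo4 higher; Fzd1, Fzd4, Wnt2b, Dkk3 and Rspo2 lower), 15% of 40, against 25.1% (13.6% higher, 11.5% lower).

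Both genotypes called 4 members in the same direction: Wnt4, Wnt5a, Fzd1 and Fzd5. These are 50% of the WT calls and 25% of the KO calls. The share of all genes called in both genotypes was not computed, so whether such sharing is particular to these members cannot be told. A call in one genotype and not in the other does not show a difference between them. In the test of that difference, the interaction of genotype and UVB, 0 of 40 members were called by edgeR. Over all genes 0.0228% were called (0.0171% higher, 0.0057% lower). An unadjusted p under 0.05 was reached by 4 of the 40 members and by 2238 of all 17531 genes. DESeq2 and limma voom each called 1 of 40 members in this test, Wnt3. Over all genes they called more than edgeR did, 204 of 17469 (DESeq2) and 459 of 17531 (limma voom).

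**Figure D2:**
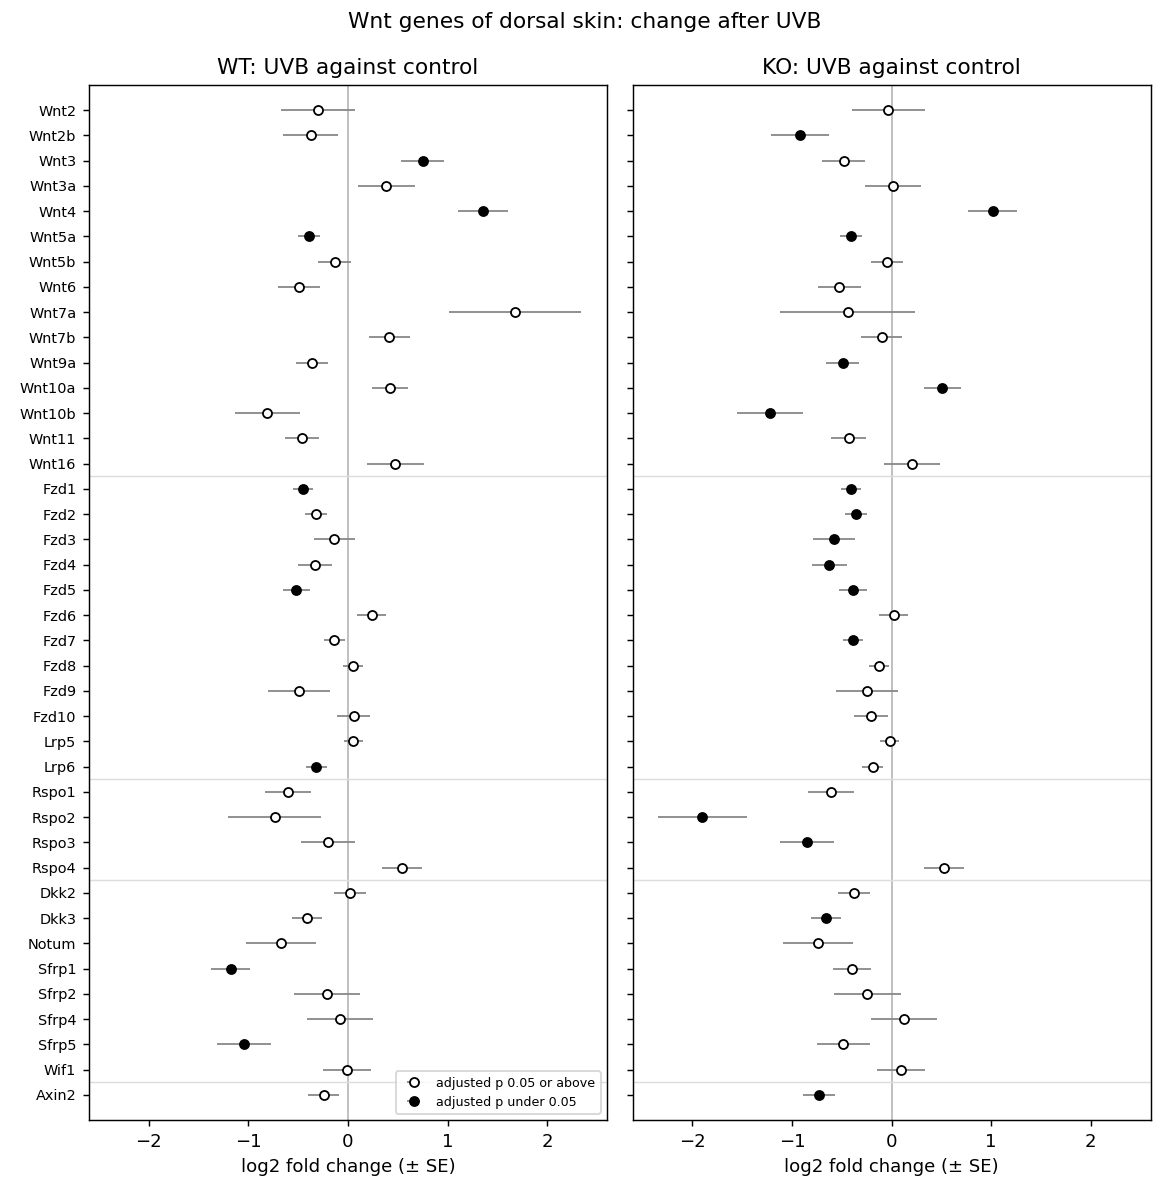
Log2 fold change after UVB for the 40 tested members in WT (left) and KO skin (right), with SE as horizontal bars. Filled points have an adjusted p under 0.05 (8 in WT, 16 in KO), and light lines separate ligands, receptors, R-spondins, antagonists and Axin2. Wnt4 lies to the right of 0 in both panels.

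Among the ligands, Wnt4 had the largest called rise. Wnt4 is expressed in skin epithelium and known for roles in kidney and reproductive tract formation. Its levels in WT control libraries 1 to 4 were 19.2, 22.4, 24.3 and 28.6 CPM, and in WT UVB libraries 50.8, 60.4, 78.0 and 52.4. Every WT UVB library was above every WT control library, and the change was 1.35 ± 0.25 (2.55-fold, adjusted p = 0.00171). In KO skin Wnt4 was at 23.3, 26.9, 28.8 and 39.6 CPM in control and 93.1, 64.1, 43.7 and 38.4 CPM in UVB libraries. KO UVB library 4 overlapped with the controls, and the change was 1.01 ± 0.25 (2.02-fold, adjusted p = 0.00621). Both Wnt4 calls held in all 15 alternative analyses run on each, with adjusted p up to 0.00798 in WT and 0.0292 in KO. Suprabasal epidermal markers rose beside it (7 of 7 in WT, 6 of 7 in KO), with sums of 6392 to 8076 CPM in WT control, 24650 to 32462 in WT UVB, 7651 to 12406 in KO control and 16814 to 51863 in KO UVB libraries. Their part in the Wnt4 result was not tested.

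Wnt3, a canonical ligand active in hair follicle and epidermis, was higher after UVB in WT skin. It was at 16.9, 16.4, 21.4 and 19.3 CPM in WT control and 31.6, 33.0, 33.2 and 27.0 CPM in WT UVB libraries, without overlap. The change was 0.75 ± 0.22 (1.68-fold, adjusted p = 0.0254), a call that ended when WT control 1 or 2 or WT UVB 2 or 3 was left out, where adjusted p reached 0.0706, and with every gene of at least 1 read (0.0558). In KO skin the values ran the other way and overlapped: 19.3, 27.8, 28.4 and 37.0 CPM in control and 23.7, 10.8, 21.8 and 24.0 CPM in UVB libraries (-0.48 ± 0.22, adjusted p = 0.0998). With limma voom and without KO control library 1, that KO value passed the test (adjusted p = 0.0018 and 0.0337), and without KO UVB library 2, the lowest, it was -0.27 (adjusted p = 0.244). The UVB effect on Wnt3 in KO minus that in WT was -1.23 ± 0.31 with an unadjusted p of 0.00102, and its adjusted p was 0.153 in edgeR, 0.0168 in DESeq2 and 0.0113 in limma voom. All 4 KO UVB libraries lay below all 4 WT UVB libraries (-0.63 ± 0.22, adjusted p = 0.16).

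Wnt10a, a ligand of epidermal and hair follicle renewal, was called in KO skin. Its KO control libraries were at 10.4, 14.0, 14.2 and 16.9 CPM and its KO UVB libraries at 26.5, 17.4, 19.3 and 15.8 CPM, with library 4 inside the control range (0.51 ± 0.18, adjusted p = 0.0431). In WT it was at 13.9, 11.8, 15.7 and 15.8 CPM in control and 17.5, 20.2, 24.0 and 15.2 CPM in UVB libraries (0.42 ± 0.18, adjusted p = 0.117), which a fit of the WT groups alone called (adjusted p = 0.0479). The KO call was lost in 9 of 15 alternative analyses, among them without KO control library 1, 2 or 3 and without KO UVB library 1 or 3.

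Wnt10b, a ligand of the growing hair follicle, was lower after UVB. Levels were 5.10, 8.60, 10.3 and 8.15 CPM in KO control and 1.94, 2.40, 3.14 and 6.19 CPM in KO UVB libraries. Library 4 of the UVB group exceeded the lowest control, and the change was -1.22 ± 0.33 (0.43 of the control level, adjusted p = 0.0108), called in all 15 alternatives. WT skin had 7.24, 6.76, 9.22 and 6.05 CPM in control and 6.51, 3.18, 3.39 and 3.61 CPM in UVB libraries, with UVB library 1 inside the control range (-0.81 ± 0.33, adjusted p = 0.0959). Without that library the WT value was -1.09 and was called (adjusted p = 0.0341), as it was with limma voom (0.0139) and in a fit of the WT groups alone (0.0324).

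Wnt5a, which signals mainly without beta-catenin through receptors such as Ror2, fell in both genotypes. WT control libraries were at 25.6, 26.7, 22.2 and 22.5 CPM and WT UVB libraries at 19.9, 17.1, 18.0 and 18.8, without overlap (-0.39 ± 0.11, adjusted p = 0.0256). The corresponding KO values were 19.2, 22.5, 25 and 24.6 CPM and 14.9, 15.9, 16.8 and 21.1 CPM, with overlap through UVB library 4 (-0.41 ± 0.11, adjusted p = 0.0127). Both are small changes of nearly the same size. The WT call ended when WT control 1 or 2 or WT UVB 2, 3 or 4 was left out, with adjusted p up to 0.0835, and the KO call ended in a fit of the 2 KO groups alone (adjusted p = 0.0672).

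Wnt2b and Wnt9a, both ligands that can act through beta-catenin, were called lower in KO skin. Wnt2b was low throughout, at 1.75, 2.42, 1.49 and 1.16 CPM in KO control and 0.995, 0.685, 1.15 and 0.774 CPM in KO UVB libraries (-0.92 ± 0.29, adjusted p = 0.0234). These groups were close to touching, at 1.16 and 1.15 CPM, and the call ended without KO control library 2 or KO UVB library 2 or 4 and in a fit of the KO groups alone. Its WT values were 1.21, 2.29, 2.01 and 1.30 CPM in control and 1.48, 0.901, 1.55 and 1.28 CPM in UVB libraries (-0.38 ± 0.28, adjusted p = 0.371), which unstranded counts called (-0.55, adjusted p = 0.046). Wnt9a was at 9.38, 8.56, 9.32 and 9.21 CPM in KO control and 5.47, 6.10, 5.54 and 8.79 CPM in KO UVB libraries, where library 4 reached the control range (-0.49 ± 0.17, adjusted p = 0.0328). Its KO call was lost in 9 of 15 alternatives, 6 of which left out 1 library: KO control 1, 3 or 4, or KO UVB 1, 2 or 3. In WT, Wnt9a was at 7.91, 9.42, 12.3 and 8.69 CPM in control and 8.86, 6.78, 6.98 and 7.22 CPM in UVB libraries (-0.36 ± 0.16, adjusted p = 0.137).

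**Figure D3:**
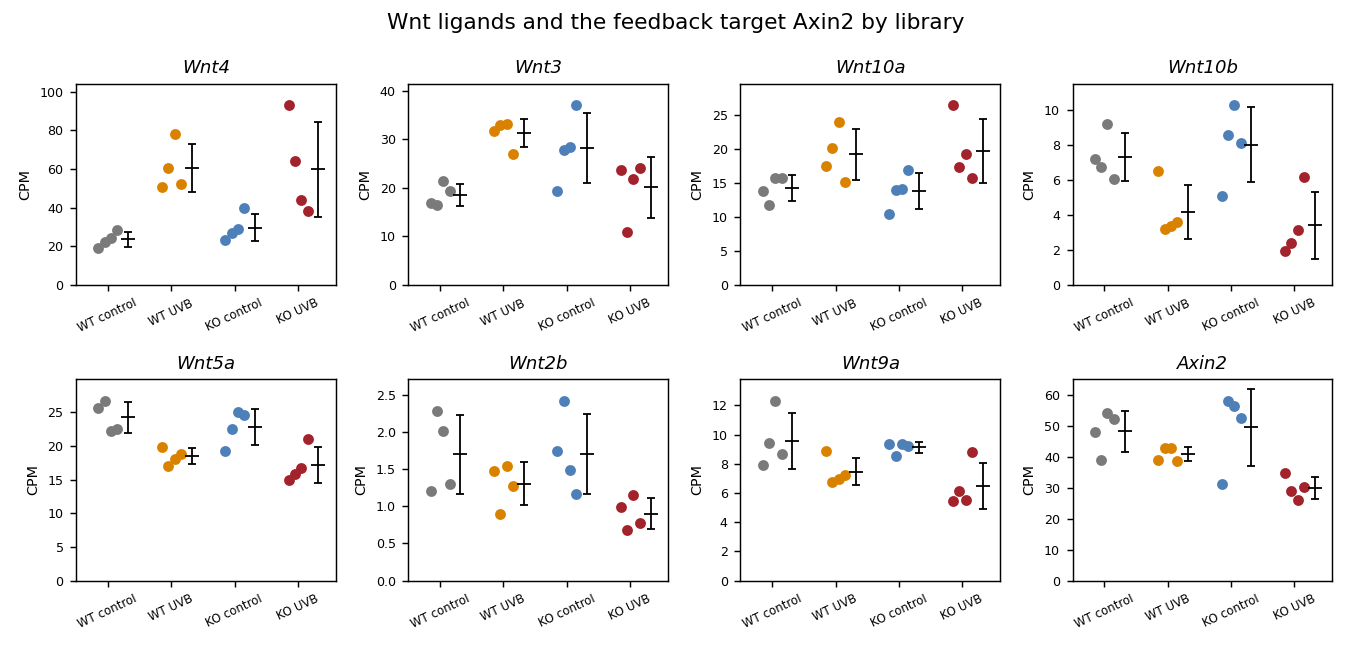
CPM of the 7 ligands called after UVB in at least 1 genotype and of Axin2, by library (points; vertical axes from 0), with mean ± SD over 4 libraries beside each group. Wnt4 is higher in all WT UVB than in all WT control libraries, and Wnt3 rises in WT (18.5 to 31.2 CPM) while its KO groups overlap.

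The other 8 tested ligands, Wnt2, Wnt3a, Wnt5b, Wnt6, Wnt7a, Wnt7b, Wnt11 and Wnt16, were not called by edgeR in the fit of all groups. Alternatives called Wnt6 and Wnt11 lower in both genotypes and Wnt7b higher in WT. In WT, limma voom and a fit of the WT groups alone called Wnt6 (adjusted p = 0.0124 and 0.026) and Wnt11 (adjusted p = 0.0178 and 0.0459), and the fit of the WT groups alone called Wnt7b (adjusted p = 0.0244). In KO, limma voom and a fit without KO UVB library 4 called Wnt6 (adjusted p = 0.01 and 0.00446) and Wnt11 (adjusted p = 0.0239 and 0.0153), and Wnt11 was also called without KO control library 4 (adjusted p = 0.0417). Among these 8 ligands, Wnt7a and Wnt7b were higher, and Wnt6 and Wnt11 lower, in every WT UVB than in every WT control library. Wnt7b, a ligand of epidermis and growing follicle, was at 24.6 to 31.1 CPM in WT control and 32.2 to 46.8 CPM in WT UVB libraries (0.42 ± 0.20, adjusted p = 0.164). Wnt7a rested on 3 to 9 reads per WT control and 9 to 21 reads per WT UVB library (1.67 ± 0.66, adjusted p = 0.0905). In KO skin these genes gave -0.10 ± 0.20 and -0.44 ± 0.68 (adjusted p = 0.737 and 0.653).

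Of the 12 receptors, 3 fell in WT (Fzd1, Fzd5 and Lrp6) and 9 were not called, where 8.6% of all genes were called lower. In KO 6 fell (Fzd1, Fzd2, Fzd3, Fzd4, Fzd5 and Fzd7) and 6 were not called, where 15.1% of all genes were called lower. None was called higher in either, and the median log2 change of the 12 was -0.23 in WT and -0.30 in KO. Fzd1, the most abundant receptor per length, was at 114, 99.4, 112 and 108 CPM in WT control and 87.1, 79.0, 71.3 and 80.3 CPM in WT UVB libraries. In KO skin it was at 92.2, 123, 92.2 and 85.7 CPM in control and 69.5, 80.6, 72.4 and 74.3 CPM in UVB libraries. Groups did not overlap in either genotype, and the changes were -0.45 ± 0.10 (adjusted p = 0.00672) and -0.41 ± 0.10 (adjusted p = 0.00707). In KO the call ended in a fit of the 2 KO groups alone, at an adjusted p of 0.0527.

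Fzd5 was the other receptor called in both genotypes. It stood at 18.2, 18.6, 16 and 17.2 CPM in WT control and 12.4, 13.3, 11.3 and 11.9 CPM in WT UVB libraries, without overlap (-0.52 ± 0.14, adjusted p = 0.0167). Its KO libraries were at 10.5, 14.2, 16 and 10.9 CPM in control and 11.2, 9.58, 10.8 and 7.74 CPM in UVB skin, with overlap (-0.39 ± 0.14, adjusted p = 0.0435). The WT call ended when WT control 1, WT UVB 3 or WT UVB 4 was left out (adjusted p up to 0.0687) and the KO call in 9 of 15 alternatives, among them without KO control library 2 or 3 or KO UVB library 2, 3 or 4. KO libraries were below WT libraries without overlap in both treatments, at -0.44 ± 0.14 without UVB (adjusted p = 0.163) and -0.31 ± 0.14 with UVB (adjusted p = 0.286). The genotypes were close to touching, with the nearest libraries both at 16 CPM without UVB and at 11.2 and 11.3 CPM with UVB.

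Fzd4, a receptor of blood vessels that also binds the non-Wnt ligand norrin, fell in KO skin. KO control libraries were at 200.3, 186, 217 and 194 CPM and KO UVB libraries at 106, 144, 101 and 166 CPM, without overlap (-0.63 ± 0.17, adjusted p = 0.0123), a call kept in all 15 alternatives. WT values overlapped, at 147, 211, 134 and 149 CPM in control and 153, 122, 100.3 and 133 CPM in UVB libraries (-0.33 ± 0.17, adjusted p = 0.191). Endothelial markers beside it had 0 of 6 called in KO and summed to 305 to 377 CPM in KO control and 287 to 397 in KO UVB libraries. Skeletal muscle markers, of which 5 of 8 fell in KO, summed to 23571 to 37813 and 11668 to 19036 CPM in the same groups, and their part in the Fzd4 result was not tested.

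The remaining called receptors changed less firmly. Fzd7 was at 63.2, 82.6, 78.8 and 80.1 CPM in KO control and 66.4, 60.5, 55.5 and 50.7 CPM in KO UVB libraries (-0.39 ± 0.10, adjusted p = 0.0109), with overlap at control library 1, and the call ended in a fit of the KO groups alone (adjusted p = 0.0561). In WT it was at 78.3, 66.0, 86.6 and 81.3 CPM and 75.8, 65.7, 72.1 and 70.6 CPM (-0.14 ± 0.10, adjusted p = 0.385). Fzd2 was at 31.6, 38.0, 38.9 and 35.6 CPM in KO control and 23.2, 29.4, 28.1 and 31.8 CPM in KO UVB libraries (-0.36 ± 0.11, adjusted p = 0.0239). These groups overlapped by a narrow margin, and the call ended without KO control library 2 or 3 or KO UVB library 1 or 3 and in a fit of the KO groups alone. WT values of Fzd2 were 37.1, 34.8, 46.7 and 37.6 CPM in control and 34.9, 28.1, 30.2 and 32.1 CPM in UVB libraries (-0.32 ± 0.11, adjusted p = 0.0576), which was called in 4 of 15 alternatives (adjusted p from 0.0194 to 0.0488): DESeq2, limma voom, a fit of the WT groups alone and without WT UVB library 1.

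Fzd3, a receptor known from axon guidance and planar polarity, and the co-receptor Lrp6 were at the edge of the threshold. Fzd3 was at 11.5, 23.1, 24.4 and 16.7 CPM in KO control and 15, 15.2, 10.7 and 9.84 CPM in KO UVB libraries, with wide overlap through control library 1 (-0.58 ± 0.21, adjusted p = 0.0456). Its WT libraries were at 21.2, 16.2, 20.5 and 20 CPM in control and 16.2, 21.1, 15.1 and 18.6 CPM in UVB skin (-0.14 ± 0.21, adjusted p = 0.682). Lrp6 was at 184.0, 187.1, 169.2 and 153.5 CPM in WT control and 154.5, 143.5, 118.4 and 140.6 CPM in WT UVB libraries (-0.32 ± 0.11, adjusted p = 0.0498). Its KO values were 158.5, 184.0, 174.9 and 137.3 CPM in control and 145.5, 160.5, 138.1 and 130.2 CPM in UVB skin (-0.19 ± 0.11, adjusted p = 0.187). Each of these 2 calls was lost in 10 of 15 alternatives. For Fzd3 these included leaving out KO control library 2, 3 or 4 or KO UVB library 3 or 4, and for Lrp6 leaving out WT control library 1, 2 or 3 or any WT UVB library. Lrp5 stayed near its control level in both genotypes, at 0.05 ± 0.09 in WT and -0.02 ± 0.09 in KO, as did Fzd8 (0.05 ± 0.10 and -0.13 ± 0.10), and neither passed the test.

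Of the R-spondins, Rspo2 and Rspo3 fell in KO skin and none was called in WT. Rspo2, an R-spondin of follicle mesenchyme, was rare, at 0.632, 0.551, 0.745 and 0.887 CPM in KO control and 0.0498, 0.114, 0.185 and 0.364 CPM in KO UVB libraries. The groups did not overlap (-1.90 ± 0.45, adjusted p = 0.00494) and the call held in all 15 alternatives, on 13 to 16 reads per control and 1 to 8 reads per UVB library. WT libraries had 0.447, 0.372, 0.393 and 0.269 CPM in control and 0.138, 0.427, 0.194 and 0.111 CPM in UVB skin (-0.73 ± 0.47, adjusted p = 0.289). Rspo2 was also higher in every KO control than in every WT control library (0.91 ± 0.40, adjusted p = 0.413).

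Rspo3, an R-spondin of dermal and vascular cells, was at 3.16, 3.73, 4.79 and 6.54 CPM in KO control and 1.59, 2.80, 1.85 and 3.83 CPM in KO UVB libraries, with overlap (-0.85 ± 0.27, adjusted p = 0.0261). Its call ended without KO control library 3 or 4 or KO UVB library 1 or 3 and in a fit of the KO groups alone. In WT it was at 3.22, 2.91, 4.81 and 3.49 CPM in control and 3.51, 2.75, 3.10 and 3.22 CPM in UVB libraries (-0.20 ± 0.27, adjusted p = 0.637). Rspo1 and Rspo4 were not called by edgeR in the fit of all groups, with Rspo1 at -0.60 ± 0.23 in WT and -0.61 ± 0.23 in KO (adjusted p = 0.0796 and 0.0538) and Rspo4 at 0.55 ± 0.20 and 0.53 ± 0.20 (adjusted p = 0.0702 and 0.057). Both had nearly the same estimate in each genotype, in opposite directions from each other. Rspo1 was called lower in 5 of 15 alternatives in KO (DESeq2, limma voom, the replicate block, without KO control library 1 and without KO UVB library 4; adjusted p from 0.00479 to 0.0489). In WT it was called in 2, limma voom and a fit of the WT groups alone (adjusted p = 0.0143 and 0.017). Rspo4 was called higher in 3 alternatives in each genotype: limma voom in both, without WT control library 3 or WT UVB library 1 in WT (adjusted p from 0.0141 to 0.0427), and without KO control library 1 or KO UVB library 4 in KO (adjusted p from 0.00941 to 0.0432). Summed dermal fibroblast markers were 55074 to 59184 CPM in KO control and 31588 to 40886 CPM in KO UVB libraries (2 of 8 genes fell). Col1a1 (17939 to 9619 CPM) and Col1a2 (19663 to 9893 CPM) carried most of that drop, the list's median log2 change was -0.13, and Pdgfra was at 144 and 157 CPM. The part of fibroblast content in the R-spondin results was not tested.

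Among the secreted antagonists, Sfrp1 had the largest called fall in WT skin. Its WT control libraries were at 142, 175, 91.5 and 109.9 CPM and its WT UVB libraries at 67.7, 46.6, 56.6 and 58.2 CPM, without overlap (-1.18 ± 0.20, 0.44 of the control level, adjusted p = 0.000758). The call held in all 15 alternatives. KO libraries were at 98.2, 72.9, 69.5 and 66.2 CPM in control and 56.9, 62.0, 44.1 and 70.1 CPM in UVB skin, with overlap (-0.40 ± 0.19, adjusted p = 0.13). Sfrp1 in KO control was thus closer to the UVB groups than WT control was (KO against WT without UVB: -0.76 ± 0.19, adjusted p = 0.0663). DESeq2 (adjusted p = 0.0117), limma voom (0.0116) and fits without WT control library 3 (0.0252) or KO control library 1 (0.0479) called that difference. The difference between the UVB effects was 0.78 ± 0.27 (adjusted p = 0.263).

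Growing-follicle markers, like Sfrp1, were highest in WT control skin. In WT control libraries 1 to 4 they summed to 3281, 3407, 1418 and 1847 CPM, which puts the libraries in the same order as their Sfrp1 levels. Of the 24 matched markers, 22 fell after UVB in WT and 17 were lower in KO than in WT control skin. In KO 21 fell after UVB, where Sfrp1 was not called. The order did not match in the other 3 groups. In WT UVB, library 2 was highest for the markers (316 CPM) and lowest for Sfrp1 (46.6 CPM). In KO control, library 1 was highest for Sfrp1 (98.2 CPM) and below libraries 2 and 3 for the markers (362 CPM), and in KO UVB, library 4 was highest for Sfrp1 (70.1 CPM) and lowest for the markers (99.3 CPM). In those 3 groups Gata3 was the largest single part of the sum, at means of 87.1 CPM in WT UVB, 117 in KO control and 66.5 in KO UVB. Krt71 was at 11.3, 51.3 and 1.51 CPM there. In WT control Tchh (962 CPM) and Krt71 (514 CPM) led, with Gata3 at 110 CPM. The sum thus weighs different genes in WT control and in the other groups. The part of follicle content in the Sfrp1 result was not tested.

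**Figure D4:**
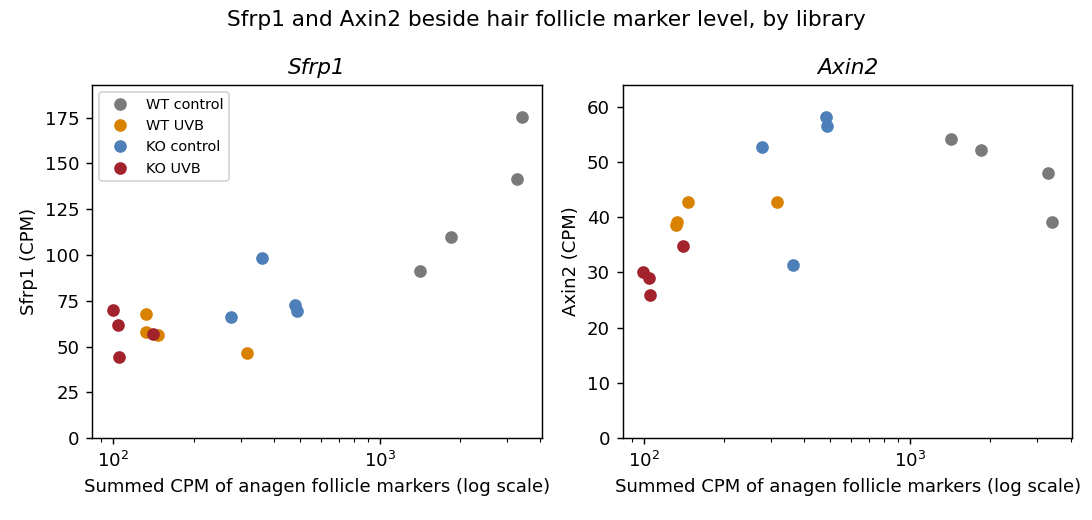
Sfrp1 (left) and Axin2 (right) in CPM against the summed CPM of the growing-follicle markers on a log scale, 1 point per library, coloured by group. WT control libraries (1418 to 3407 CPM of markers) hold the 3 highest Sfrp1 values, while the highest Axin2 values (58.1 and 56.5 CPM) are in KO control libraries with far fewer of these markers.

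Sfrp5 fell in WT skin, from 16.4, 24.9, 14.1 and 17.6 CPM in control to 9, 8.44, 7.32 and 10.6 CPM in UVB libraries, without overlap (-1.04 ± 0.27, 0.49 of the control level, adjusted p = 0.014). The call ended when WT control 2 or WT UVB 3 was left out (adjusted p up to 0.0509). Its KO values overlapped, at 16.5, 12.5, 20.7 and 9.04 CPM in control and 7.66, 11.4, 7.48 and 15.4 CPM in UVB libraries (-0.49 ± 0.27, adjusted p = 0.175). Without KO UVB library 4 that value was -0.72 and was called (adjusted p = 0.0472). Dkk3, a Dkk-family protein that differs from the others in not acting as a classical Lrp5 and Lrp6 blocker, fell in KO skin. KO control libraries were at 41.1, 67.3, 57.9 and 55.3 CPM and KO UVB libraries at 36.6, 41.0, 32.8 and 30 CPM (-0.66 ± 0.15, adjusted p = 0.0036). These groups were close to touching, at 41.1 and 41.0 CPM, and the call held in all 15 alternatives. WT values were 54.5, 42.3, 57.7 and 59.5 CPM in control and 33.9, 45.1, 39.2 and 43.1 CPM in UVB libraries (-0.41 ± 0.15, adjusted p = 0.0637), which was called in 3 of 15 alternatives (adjusted p from 0.0197 to 0.0344): limma voom, a fit of the WT groups alone and without WT control library 2. Sfrp2, Sfrp4, Dkk2, Wif1 and Notum were not called after UVB by edgeR in the fit of all groups. Sfrp2 in WT was called lower without WT UVB library 1 (-0.75, adjusted p = 0.047, against -0.21 with it), and Dkk2 in KO without KO control library 4 (-0.48, adjusted p = 0.0299). Notum, which removes the lipid from Wnt proteins, had the largest uncalled estimates of these (-0.67 ± 0.35 in WT and -0.74 ± 0.35 in KO, adjusted p = 0.193 and 0.118), and limma voom called it in WT (adjusted p = 0.028).

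**Figure D5:**
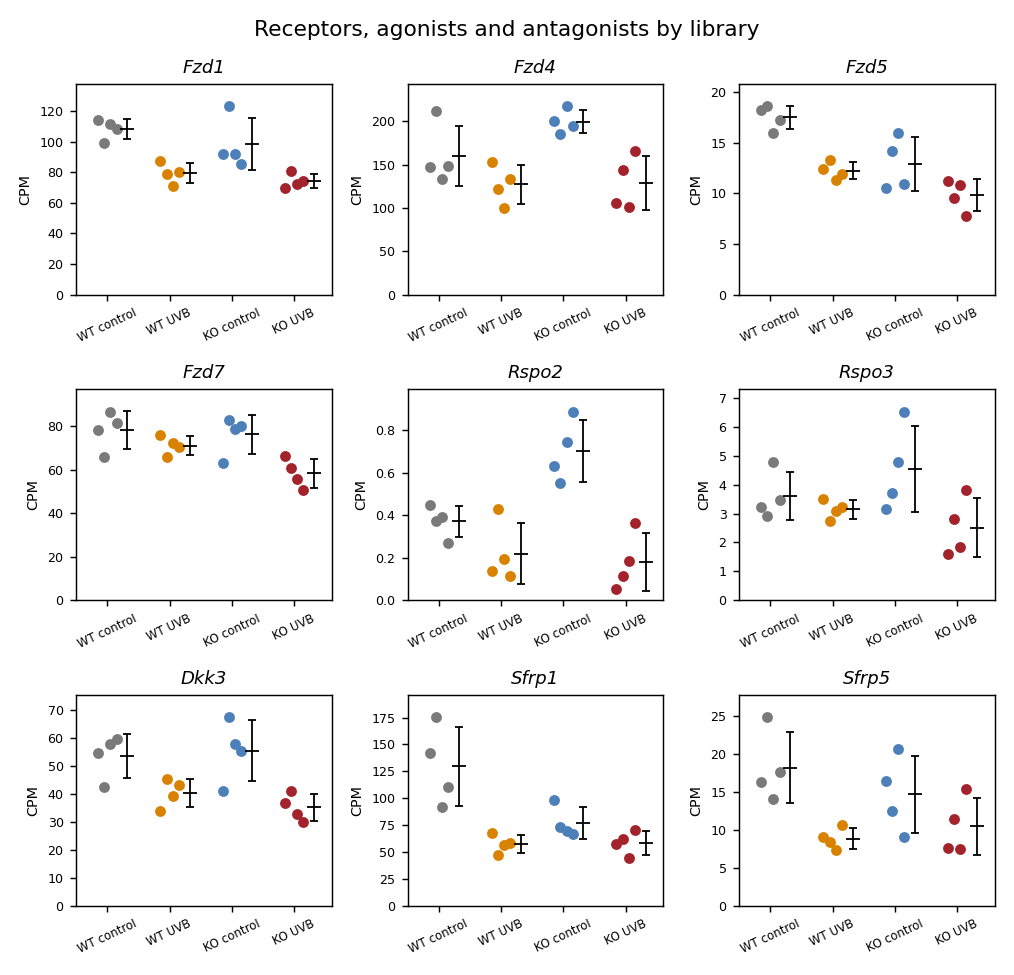
CPM of 4 Frizzled receptors, 2 R-spondins and 3 antagonists by library (points; vertical axes from 0), with mean ± SD over 4 libraries beside each group. Fzd1 is lower in all UVB than in all control libraries of its genotype, and Sfrp1 has its highest group mean in WT control skin (129.6 CPM).

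Axin2, a feedback inhibitor that is induced by canonical signalling and used as its readout, was lower after UVB in KO skin. KO control libraries were at 31.3, 58.1, 56.5 and 52.6 CPM and KO UVB libraries at 34.8, 29.0, 25.9 and 30.1 CPM. Control library 1 lay inside the UVB range, and the change was -0.73 ± 0.16 (0.60 of the control level, adjusted p = 0.00325), called in all 15 alternatives. WT libraries were at 47.9, 39.1, 54.1 and 52.2 CPM in control and 39.1, 42.8, 42.8 and 38.6 CPM in UVB skin (-0.25 ± 0.16, adjusted p = 0.299). With UVB, every KO library was below every WT library (-0.45 ± 0.16, adjusted p = 0.179 in edgeR and 0.0477 in limma voom). The interaction was -0.48 ± 0.23 (adjusted p = 0.385), so the 2 genotypes were not shown to differ.

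KO control library 1 was the lowest of its group in 12 of the 20 members called in any comparison, among them Axin2, Dkk3, Fzd3, Fzd7 and Wnt10b. KO UVB library 4 was the highest of its group in 10 of the 20 (among them Wnt10b, Wnt5a, Wnt9a, Rspo2 and Fzd4) and the lowest in 7. WT UVB library 1 was also the highest of its group in 10, and WT control library 2 the lowest in 9. An even spread over 4 libraries would give 5 of 20. The same ranks over all genes were not computed, so whether they are particular to these members cannot be told. Without KO control library 1 the KO comparison called 17 members, and without KO UVB library 4 it called 18. Over all genes the same fits called 5843 and 6350, against 5666 with every library.

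Genotype alone gave no call among the members. Between KO and WT control skin 0 of 40 were called by edgeR, where 1.69% of all genes were called (0.416% higher, 1.28% lower). An unadjusted p under 0.05 was reached by 5 of the 40 and by 1916 of all 17531 genes. DESeq2 and limma voom called 1 each, Sfrp1, of 42 and 40 members. Over all genes they called 443 of 21413 and 589 of 17531. Between KO and WT skin with UVB 0 of 40 were called by edgeR, where 0.856% of all genes were called (0.496% higher, 0.359% lower). Here 6 of the 40 and 2857 of all 17531 genes had an unadjusted p under 0.05. DESeq2 called 0 of 41 members and limma voom 2 of 40, Wnt3 and Axin2. Over all genes they called 655 of 18126 and 1117 of 17531. The groups did not overlap in 2 members without UVB (Rspo2 higher and Fzd5 lower in KO) and 4 with UVB (Wnt3, Axin2, Dkk2 and Fzd5, all lower in KO), 5% and 10% of the 40. Over all genes the groups did not overlap in 7.68% without UVB (3.05% higher, 4.63% lower in KO) and 8.16% with UVB (4.27% higher, 3.89% lower). Dkk2, an antagonist of Lrp5 and Lrp6 made in follicle dermis, was at 30.7 to 36.4 CPM in WT UVB and 21.1 to 27.6 CPM in KO UVB libraries (-0.47 ± 0.16, adjusted p = 0.163).

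Of the other genes of the pathway, a list of 60 of which 59 were tested, 2 rose and 6 fell in WT, where 10.2% of all genes were called higher and 8.6% lower. In KO 3 rose and 20 fell, where 17.2% were called higher and 15.1% lower. Their median was -0.07 in WT and -0.20 in KO, against -0.03 and -0.02 over all genes. Ctnnbip1, which blocks the contact of beta-catenin with TCF factors, rose from 45.4 ± 3.90 to 121.5 ± 13.4 CPM in WT (1.42 ± 0.14, adjusted p = 1.53e-05) and from 45.9 ± 6.82 to 108 ± 24.9 CPM in KO (1.24 ± 0.14, adjusted p = 3.97e-05). Porcn, the enzyme that attaches the Wnt lipid, rose in WT (0.48 ± 0.16, adjusted p = 0.0448). In KO it was at 0.42 ± 0.16, just above the threshold (adjusted p = 0.0501). Lef1, a transcription factor of the growing follicle, fell in WT from 5.38 ± 0.86 to 2.02 ± 0.58 CPM (-1.41 ± 0.26, adjusted p = 0.00166), beside the corepressor Tle2 (-0.48 ± 0.10, adjusted p = 0.00462) and the transcription factor Tcf7l2 (-0.50 ± 0.15, adjusted p = 0.026). All of these were called lower in KO too: Lef1 (-0.83 ± 0.27, adjusted p = 0.0284), Tle2 (-0.40 ± 0.10, adjusted p = 0.00892) and Tcf7l2 (-0.41 ± 0.15, adjusted p = 0.0432).

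In KO skin the called genes with the smallest adjusted p among those that fell were Pygo1, a cofactor of beta-catenin (-0.79 ± 0.13, adjusted p = 0.000489), Prickle1, a planar polarity gene (-0.59 ± 0.11, adjusted p = 0.00137), and the Wnt5a receptor Ror2 (-0.64 ± 0.13, adjusted p = 0.00225). Ror2 was called lower in WT too (-0.44 ± 0.13, adjusted p = 0.0306). Pygo1 and Prickle1 were not (-0.26 ± 0.13 and -0.29 ± 0.11, adjusted p = 0.179 and 0.0822). Besides Ctnnbip1, the genes called higher in KO were Csnk1a1, a kinase of the beta-catenin destruction complex (0.30 ± 0.10, adjusted p = 0.033), and the planar polarity gene Vangl1 (0.31 ± 0.11, adjusted p = 0.0376). Their WT values were close, at 0.28 ± 0.10 and 0.31 ± 0.11, and not called (adjusted p = 0.0605 and 0.0517). Markers of the hair follicle bulge, a list that includes Lgr5, had 5 of 10 fall in KO. They summed to 2430 to 3020 CPM in KO control against 1669 to 1873 in KO UVB libraries, and 2288 to 3359 against 1972 to 2477 CPM in WT. Krt15 carried most of the KO drop (1488 to 564 CPM), while Postn was at 570 and 659 CPM. The list's median log2 change was -0.41 in KO and -0.24 in WT, where 2 of 10 fell. Schwann cell markers fell as well (6 of 7 in each genotype), at 346 to 506 against 215 to 366 CPM in KO. The part of these cell types in the results was not tested. In the comparisons of genotype and in the interaction, edgeR called 0 of the 59.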

How the data were processed

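The authors deposited raw read counts per gene and library, made with STAR on GRCm39 per the submitters' processing notes, with no version, and no annotation is named in the sources used here. Libraries were poly(A)-enriched and directional, per the labels' protocols. Reads counted on the reverse strand made up 95.74% of both strands and were used. Lines for unmapped (10.7 to 19.5%), no-feature (7.25 to 10.2%), ambiguous (1.18 to 1.42%) and multimapping (0%) reads stayed out of library sizes. A combined table with 17 value columns without sample names was not used, nor was the further KO UVB sample of the sample list. Symbols were matched by Ensembl ID to a GENCODE M21 table (52083 of 55359 IDs), and all 47 symbols of that table that fit the rule were found. Exon lengths are those of M21, an annotation other than the one counted.

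Counts were fitted with edgeR 4.0.16 (TMM, filterByExpr, robust quasi-likelihood) in R 4.3.3 as 1 model of 4 groups, with 5 contrasts. CPM are TMM-normalised, and the SE is that implied by the test. The fit was tested on simulated data for the WT comparison. Within groups, all 24 pairs of libraries differed beyond counting noise (chi-square divided by its degrees of freedom, 13.6 to 143). Replicate numbers are shared between groups. Same-numbered libraries correlated at -0.403 to 0.219 in their deviations from group means, so the numbers were not treated as pairs. Alternatives were DESeq2 1.42.0, limma voom 3.58.1 with quality weights, DESeq2 size factors, no filter beyond 1 read, unstranded counts, a fit of the 2 groups compared, a replicate block and leaving out each library of the comparison. Values in every library are given for the 20 members called in any contrast, and of the other pathway genes the 3 with the smallest adjusted p in each direction after UVB. The members, lists and tests were chosen with earlier results of these data known.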

Additional observations from a re-analysis of the deposited data

Results flagged for a closer look

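In 2 of 80 sets of 4 libraries (20 members in 4 groups), 1 library stood far from the other 3 by Dixon's test. Chance gives about 5% of such sets. Wnt10b in WT UVB skin was at 6.51 CPM in library 1 and at 3.18 to 3.61 CPM in the others, a gap of 0.87 of the group's range. Wnt3 in KO UVB skin was at 10.8 CPM in library 2 and at 21.8 to 24.0 CPM in the others, a gap of 0.836 of the range. Without that library the UVB effect on Wnt3 in KO was -0.27 (adjusted p = 0.244, edgeR) and the interaction -1.04 (adjusted p = 0.143). Without the first library the fall of Wnt10b in WT skin was called, as given above.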

How the results depend on the processing

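The 24 member calls after UVB were recomputed under 15 alternatives each. None changed direction, 9 were kept under every alternative (Wnt4 in both genotypes, Sfrp1 and Fzd1 in WT, and Axin2, Dkk3, Fzd4, Rspo2 and Wnt10b in KO) and 15 were lost under at least 1. In WT, 8 members were called, 16 with limma voom, 16 in a fit of the WT groups alone, 8 with the replicate block and 3 to 11 without 1 library. The count was 4 without WT control library 1, 5 without WT control library 2 or WT UVB library 2 or 4, and 3 without WT UVB library 3. In KO, 16 were called, 6 in a fit of the KO groups alone, 13 with the replicate block and 10 to 18 without 1 library, with 10 reached without KO control library 3 or KO UVB library 3. KO against WT without UVB gave 0, and 1 with DESeq2, 1 with limma voom and 0 to 1 without 1 library. KO against WT with UVB gave 0, 2 with limma voom and 0 to 0 without 1 library. The interaction gave 0, 1 with DESeq2, 1 with limma voom and 0 to 0 without 1 library. The replicate block gave 0 members in these 3 comparisons. The cause of these shifts was not tested. Over all genes, calls in WT numbered 3290, 5117 with limma voom, 4363 in the fit of the WT groups alone and 2696 with the replicate block. In KO they numbered 5666, 3506 in the fit of the KO groups alone and 5169 with the replicate block. Between genotypes without UVB they numbered 297, 443 with DESeq2 and 589 with limma voom. With UVB they numbered 150, 655 with DESeq2, 1117 with limma voom, 77 with the replicate block and 79 in the fit of those groups alone. The interaction called 4 genes, 204 with DESeq2, 459 with limma voom, 22 with every gene of at least 1 read and 7 with the replicate block. Leaving out 1 library gave 2039 to 3099, 4280 to 6350, 161 to 288, 59 to 487 and 2 to 110 calls over all genes in the 5 contrasts. The calls between genotypes with UVB were 454 without KO UVB library 1 and 487 without KO UVB library 4. Those of the interaction were 30 without KO control library 1 and 110 without KO UVB library 4. Same-numbered libraries correlated best with their own number in 1 of 16 cases. Member values of 1 CPM or less, as in Rspo2 and Wnt7a, rest on few reads.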
